A study of Mus musculus with 34 samples.

Results

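The average H3K9me2 signal of gonadal soma was set against that of primordial germ cells (PGCs), gene by gene and repeat family by repeat family. H3K9me2 is a mark of repressed chromatin, and it was profiled by CUT&RUN, in which an antibody directs a nuclease to cut out the DNA around the mark. The members were all features listed for both cell types in the authors' deposited tables: 26721 genes of 29006 listed by at least 1 table, and 1445 repeat families of 1493. For each, the mean log2 CPM, a read count scaled to the size of its library, of the PGC table was subtracted from that of the soma table, and the median of all such differences was then removed. A centred difference of 1 is a 2-fold higher signal in soma than in PGCs, relative to the median gene or family.

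All groups were C57BL/6 mouse embryos, labelled female, of embryonic day 13.5, and all carried the Gulo-/- genotype, which removes the last enzyme of vitamin C synthesis. The soma was the Oct4GFP-negative remainder of the sorted gonad, with 4 libraries of the diet with vitamin C supplied and 3 with it withdrawn, over early gestation. The PGCs were the Oct4GFP-positive cells, with 5 libraries of each diet, and each library held 1000 cells. The soma gate takes in every gonadal cell without the reporter, and the sources used here do not say how embryos were pooled. The same numbers of IgG libraries were not used, and since no header names an antibody, the tables are assumed to be those of H3K9me2.

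H3K9me2 is laid down chiefly by the paired methyltransferases Ehmt2 and Ehmt1, also called G9a and GLP, and covers broad domains of silent chromatin. Mouse PGCs are known to lose much of this mark, together with DNA methylation, on their way into the gonad. Known targets of the mark in somatic cells include germline genes and young retrotransposons.

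The tables give 1 average per feature and no values per library, so no comparison here carries a test, and the averages are the authors' own, without a spread between libraries. An approximate standard error was read from the authors' deposited table, from the fold change and t statistic between diets, and combined over both cell types. It had a median of 0.34 log2 for genes and 0.32 for families. It follows the tables' shared trend of error with level, so it describes the precision at a level rather than of 1 gene. Both diets enter each average. The soma and PGC tables were filtered and scaled separately, and CPM values are shares of a library, so a uniform gain or loss of the mark over the genome cannot be told apart from no change.

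Depth was derived from the steps of the lowest averages. The geometric mean effective library size was at least 1512597 reads for soma genes and at least 613600 for PGC genes, at which the median soma gene has 15.4 reads per library and the median PGC gene 6.53. For families it was at least 2130350 in soma and 792225 in PGCs. In libraries labelled female, 34 genes of the Y chromosome were listed in both tables, and which libraries their reads came from could not be read from averages. An H3K9me2 table holds no RNA, so the sorted cell types could not be checked by the expression of their markers.

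The averages of soma and PGCs lay close to each other over the whole range (Pearson r = 0.957 across 26721 shared genes, a description, since genes are not independent). The median gene differed by 0.0021 log2 and the standard deviation of the centred differences was 0.55. The differences ran from -3.03 to 2.02, and 64.9% of genes lay within 0.5 of the median. A centred difference of at least 1 was found for 756 genes higher in soma, 2.83% of all, and for 985 genes lower in soma, 3.69% of all. The genes higher in soma had a median length of 13.5 kb, those lower in soma 4.14 kb, and all shared genes 18.1 kb. Predicted models and clone names made up 65.7% of the genes higher in soma, 24.1% of those lower in soma, and 33.5% of all. These counts lean on weak signals: 165 of the higher and 262 of the lower genes had a mean level at or above the median gene.

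**Figure D1:**
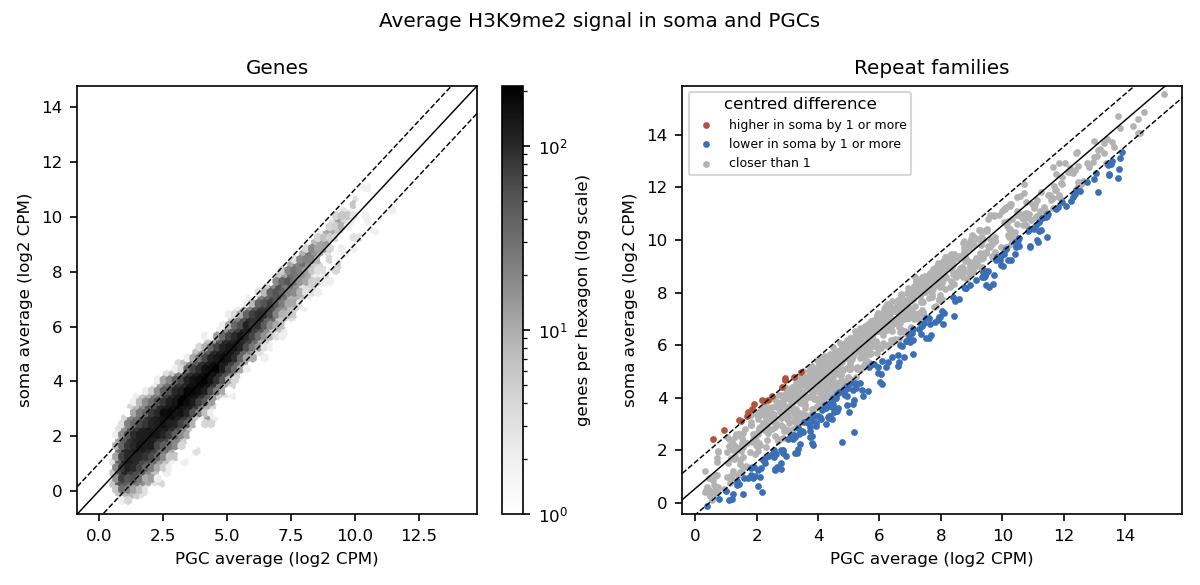
Average H3K9me2 signal of each shared gene (left, shaded by the number of genes) and repeat family (right), with the soma average in log2 CPM on the vertical axis and the PGC average on the horizontal axis. The solid line is the median difference and the dashed lines lie 1 log2 unit to either side; 756 genes and 17 families lie above the upper line, 985 genes and 242 families below the lower line.

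Among genes at or above the median level, Cd4 and Pfn2 were the lowest in soma. Cd4, the T cell co-receptor, averaged 5.36 log2 CPM in soma and 7.88 in PGCs, a centred difference of -2.53 (approximate SE 0.25), or 5.76-fold lower in soma. Which libraries carry this gap could not be read from averages. Pfn2, an actin-binding profilin, averaged 3.82 in soma and 6.27 in PGCs (centred -2.44). Med16, a subunit of the Mediator complex, followed at -1.97, Hsd17b4, an enzyme of peroxisomal fatty acid oxidation, at -1.89 and Pygm, muscle glycogen phosphorylase, at -1.88.

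Several of the next genes are expressed in nearly every cell. Eef1a1, a translation elongation factor, averaged 5.80 log2 CPM in soma and 7.43 in PGCs (centred -1.64). Pgk1, a glycolytic enzyme on the X chromosome, averaged 5.29 in soma and 6.94 in PGCs (-1.65). Both are known for open chromatin in most cells. Hspa1b, a stress-induced Hsp70 chaperone, averaged 4.82 in soma and 6.59 in PGCs (-1.77), and Hspa2, its relative of the male germline, averaged 3.54 in soma and 5.15 in PGCs (-1.61). Chd1, a chromatin remodeller of active promoters, averaged 5.99 in soma and 7.60 in PGCs (-1.61). The 12 lowest also held Hoxd11 at -1.59 and the 5S ribosomal RNA gene n-R5s146 at -1.79. When compared with genes of like length, within deciles of length, Eef1a1 moved to -1.19, Hspa1b to -1.32, Hspa2 to -1.16 and n-R5s146 to -1.34.

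At the other end Nat3 and Muc5b were the highest in soma. Nat3, an arylamine N-acetyltransferase, averaged 4.67 log2 CPM in soma and 2.87 in PGCs, a centred difference of 1.79 (approximate SE 0.35), or 3.47-fold higher in soma. Muc5b, a gel-forming airway mucin, averaged 4.51 in soma and 2.93 in PGCs (1.58). Trpa1, an irritant-gated cation channel of sensory neurons, averaged 5.62 in soma and 4.09 in PGCs (1.53).

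3 of the 12 highest lie side by side in the interferon-inducible cluster of chromosome 1. Ifi203 averaged 4.60 log2 CPM in soma and 3.06 in PGCs (1.54), Mnda 4.26 in soma and 2.90 in PGCs (1.36), and Ifi205 4.27 in soma and 3.00 in PGCs (1.27). They share similar sequence, so their reads may be shared and their values are uncertain as single genes. Slc6a20b, an amino acid transporter, stood at 1.42, Slc22a28, of the organic anion transporters, at 1.28 and Tmem45a2 at 1.35. Malat1, an abundant nuclear non-coding RNA, averaged 5.36 in soma and 3.97 in PGCs (1.39). Erdr1 at 1.40 and Speer4cos at 1.38 have near-identical copies and are uncertain.

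The median difference declined with the number of neighbouring genes. In the decile of genes with the fewest neighbours, 9 genes per Mb at the median, the median centred difference was 0.36. In the decile with the most, 68 per Mb, it was -0.33, and it declined at each step between them. Among genes at or above the median level the sparsest decile had 0.39 and the densest -0.34.

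Length and promoter sequence gave shallower trends. The shortest decile of genes, 2161 bases at the median, had a median of -0.45, and the longest, 171407 bases, had 0.19, while all deciles from the third to the ninth lay between -0.01 and 0.05. Short genes collect few reads, and the lowest decile of genes by level had a median of -0.31 where the other deciles ran from -0.01 to 0.12, so length and level cannot be told apart there. Promoters were taken from RefSeq for 14848 of 18156 protein-coding genes outside chromosome 18, as 300 bases around the start. With a median of 1 CpG dinucleotide in these bases the median difference was 0.19, and with 14 or more the medians lay between -0.11 and -0.19. By promoter GC content, the decile at 45.3% GC had 0.21 and the decile at 69.0% had -0.17.

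**Figure D2:**
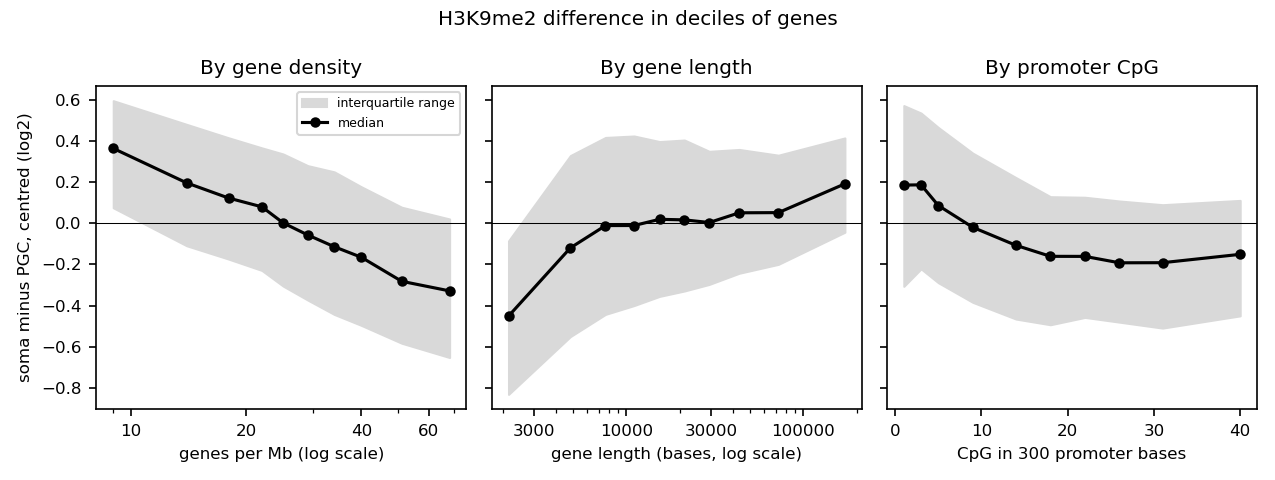
Median centred difference, soma minus PGC in log2, for deciles of genes by genes per Mb, by gene length in bases and by CpG dinucleotides in 300 promoter bases of protein-coding genes, with the interquartile range of each decile shaded. The medians decline from 0.36 to -0.33 with density, lie at -0.45 in the shortest decile of genes, and are above 0 in the 3 deciles poorest in CpG.

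Over the genome this ordering appeared as a small difference between chromosomes. The gene-dense chromosome 11 had the lowest autosomal median, -0.21, and chromosome 13 the highest, 0.16. Across the 19 autosomes the median difference declined with the median gene density (Pearson r = -0.785 and Spearman rho = -0.787, given as a description; chromosomes share their libraries). Chromosome X, with 947 genes, stood at 0.05 and went to -0.01 among genes at or above the median level. Neighbouring 1 Mb bins had similar medians, with r = 0.438 over 1382 adjacent pairs of bins holding at least 5 genes. Of 1744 such bins, 133 lay at 0.5 or above and 30 at -0.5 or below.

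The 2 compartments apart from the rest were chromosome Y and the mitochondrial genome. All 13 mitochondrial protein genes were lower in soma, with a median of -1.32. Of them 11 were lower by at least 1, 84.6% against 3.69% of all genes. COX1, a subunit of cytochrome c oxidase, averaged 5.55 log2 CPM in soma and 6.93 in PGCs (-1.38), and ND5, of complex I, averaged 5.60 in soma and 6.80 in PGCs (-1.19). ND6 was closest to 0, at -0.71. Mitochondrial DNA carries no histones, and its reads may be shared with copies in the nuclear genome. Per kb of gene, the median mitochondrial gene had 4.29 log2 CPM in soma and 5.67 in PGCs. The median autosomal gene had -0.48 in soma and -0.56 in PGCs. IgG libraries were not used, and how much of the averages comes from DNA without the mark was not tested. Against genes of like length the median centred difference of the mitochondrial genes was -0.87.

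The 34 Y-linked genes had a median of -1.07, and of -0.94 against genes of like level. Of them 18 were lower in soma by at least 1, 52.9% against 3.69% of all genes and 10.4% in the lowest decile by level. Uty, a histone demethylase homologue, averaged 6.04 log2 CPM in soma and 7.35 in PGCs (-1.32), and Usp9y, a deubiquitinase, averaged 4.25 in soma and 5.64 in PGCs (-1.39). Kdm5d, a demethylase of H3K4, stood at -1.06, Ddx3y, an RNA helicase, at -1.12 and Sry, the male sex determinant, at -1.42. Per kb of gene, the median Y-linked gene had -3.11 log2 CPM in soma and -2.08 in PGCs, against -0.48 in soma and -0.56 in PGCs for autosomal genes. At the median, Y-linked signal per kb was thus below autosomal signal in both cell types and farther below it in soma. Not every gene followed the median. Per kb, Uty had -1.29 in soma but 0.03 in PGCs, and the short Sry had 0.79 in soma and 2.21 in PGCs. Usp9y, Kdm5d and Ddx3y lay below the autosomal medians in both. The libraries are labelled female, and whether some of them held male cells was not tested.

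**Figure D3:**
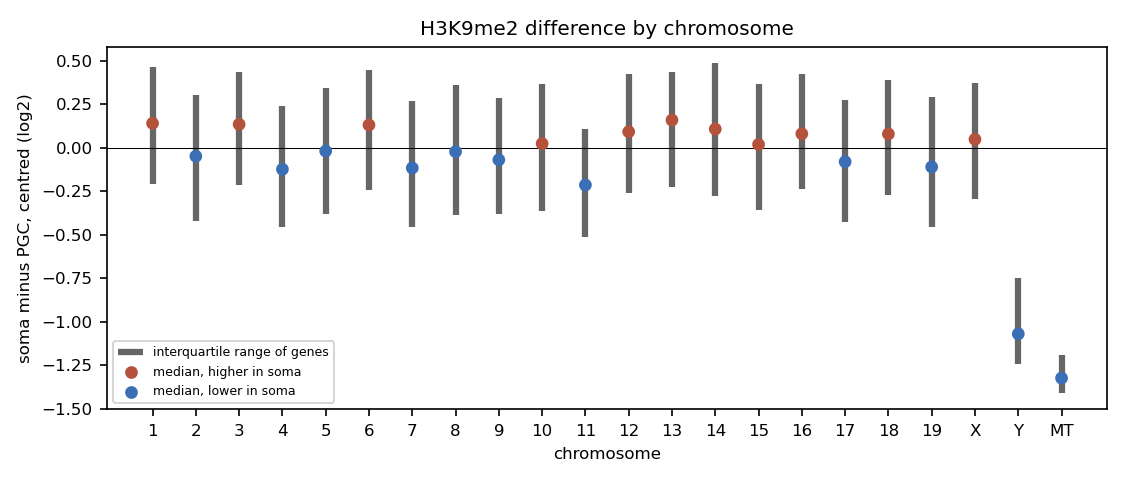
Median centred difference, soma minus PGC in log2, of the genes of each chromosome, with bars over the interquartile range of genes. The autosomes and X lie between -0.21 and 0.16, chromosome Y at -1.07 and the mitochondrial genome (MT) at -1.32.

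A single array made the lowest 1 Mb bin. The 5S ribosomal RNA genes of chr8:123538784-123622046 (mm10) had a median of -1.62 over 26 listed copies, 2.64 log2 CPM in soma and 4.24 in PGCs. Of these copies 25 were lower in soma by at least 1, 96.2% against 3.69% of all genes. The 40 protein-coding genes within 1 Mb had a median of -0.23. The copies are near-identical, so their reads are shared and the array is better read as 1 value. Other short RNA genes transcribed by RNA polymerase III were also below the median gene, though not all by as much. Rn7s1 encodes 7SL RNA, the scaffold of the signal recognition particle, and averaged 9.78 in soma and 11.16 in PGCs (-1.39). Rn7sk, the RNA that holds back transcription elongation, averaged 3.13 in soma and 4.70 in PGCs (-1.57). The Y RNA genes Rny1 and Rny3, which bind the Ro protein, stood at -1.45 and -1.90. Rnu6, the U6 RNA of the spliceosome, averaged 0.36 in soma and 1.10 in PGCs (-0.74, approximate SE 0.56), and stood at only -0.22 against genes of like level.

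Clustered replication histone genes, which supply new nucleosomes in S phase, had the lowest median of the gene lists, -1.11 over 41 genes. Of these, 23 were lower in soma by at least 1, 56.1% against 3.69% of all genes, and 0 were higher. The share lower by as much was 10.4% in the lowest decile of genes by level and 16.6% in the shortest decile. Hist2h3c2, an H3 gene, averaged 0.31 log2 CPM in soma and 2.40 in PGCs (-2.09), and Hist1h2bg, an H2B gene, averaged 2.06 in soma and 3.41 in PGCs (-1.35). Hist1h2be, the only one at or above the median level, stood at -0.38. These genes are short and in part near-identical. Their median was -0.67 against genes of like length and -0.85 against genes of like level. Of the 58 histone genes listed by at least 1 table, 4 were listed for soma only, 6.90% against 6.84% of all genes. Another 13 were listed for PGCs only, 22.4% against 1.03% of all genes, among them Hist1h2ac.

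Hox genes, the homeobox factors that set position along the body axis, were lower in soma in all 30 listed cases. Their median was -0.79, with 2.49 log2 CPM in soma and 3.29 in PGCs, and 7 were lower by at least 1, 23.3% against 3.69% of all genes. The 4 lowest belong to posterior groups of their clusters, but the whole list was not ordered by position. Hoxd13 averaged 1.95 in soma and 4.0 in PGCs (-2.06), Hoxd11 4.82 in soma and 6.40 in PGCs (-1.59), Hoxc11 1.83 in soma and 3.24 in PGCs (-1.42), and Hoxa13 2.08 in soma and 3.45 in PGCs (-1.37). Hoxb8, Hoxa2 and Hoxb1, of middle or anterior groups, were also lower by at least 1, at -1.19, -1.18 and -1.11. Posterior Hoxc10 and Hoxc12 stood at -0.42 and -0.69, nearer 0 than the median of the list. Hoxd3, the nearest to 0 of those at or above the median level, stood at -0.48, and Hoxc4 was the closest of all, at -0.24. The median stayed between -0.85 and -0.68 in every alternative processing run. Hox genes share 4 clusters, so they are not independent observations.

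Homeobox factors outside the Hox clusters followed, with a median of -0.55 over 81 genes, 14 lower by at least 1, 17.3% against 3.69% of all genes, and 68 below the median gene. Six3, a factor of forebrain and eye, averaged 3.05 log2 CPM in soma and 4.31 in PGCs (-1.26), while Pax8, of thyroid and kidney, averaged 5.12 in soma and 4.84 in PGCs (0.28). Ribosomal protein genes had a median of -0.49 over 69 genes, and -0.15 at its nearest to 0 under another processing. Of them 7 were lower by at least 1, 10.1% against 3.69% of all genes and 10.4% in the lowest decile of genes by level. Reads of their many pseudogenes may be shared with them. Genes of the proteasome and of respiratory complex I had -0.25 over 80 genes, 24 above the median gene, from Psmd2, a proteasome subunit, at -0.86 to Psma8, its testis-specific relative, at 0.65 among those at or above the median level. Zinc finger genes had -0.17 over 357 genes, from Zfp821 at -1.36 to Zfp459 at 0.85 at that level.

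Receptors of the vomeronasal organ, which detects pheromones, lay at the other end. Their median was 0.55 over 147 genes, with 3.98 log2 CPM in soma and 3.39 in PGCs. Of them 20 were higher in soma by at least 1, 13.6% against 2.83% of all genes, and 0 were lower by as much. Vmn2r13 averaged 4.69 in soma and 3.62 in PGCs (1.08), and Vmn2r96, the lowest at its level, averaged 4.48 in soma and 4.87 in PGCs (-0.39). Of the 225 vomeronasal receptor genes listed by at least 1 table, 77 were listed for soma only, 34.2% against 6.84% of all genes, and 1 for PGCs only, 0.44% against 1.03%. These receptors come in near-identical copies, and reads may be shared between them.

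Olfactory receptors, a far larger family of chemosensory genes, did not follow the vomeronasal ones. Their median was -0.39 over 759 genes, but it turned to 0.28 among genes at or above the median level and to 0.02 against genes of like length, so they have no fixed direction here. At or above the median level, Olfr631 averaged 4.04 log2 CPM in soma and 3.35 in PGCs (0.69), and Olfr39 averaged 3.69 in soma and 4.69 in PGCs (-0.997). Of 995 olfactory receptor genes listed by at least 1 table, 197 were listed for soma only, 19.8% against 6.84% of all genes. Another 39 were listed for PGCs only, 3.92% against 1.03% of all genes.

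Several other clusters of tissue-restricted genes had medians above the median gene, and some had not. Cytochrome P450 genes of subfamily 2, liver enzymes of drug and steroid metabolism, had a median of 0.46 over 47 genes, and Cyp2j9 averaged 4.49 log2 CPM in soma and 3.30 in PGCs (1.19), while Cyp2j6 stood at -0.30. Major urinary protein genes, which encode pheromone carriers made in liver, had a median of 0.55 over 18 near-identical genes. Nlrp genes, a family of innate sensors with an oocyte branch, had 0.33 over 21 genes, and Nlrp4f, of that branch, averaged 4.73 in soma and 3.59 in PGCs (1.13), while Nlrp4e stood at -0.28. Long genes of neurons had 0.53 over 35 genes, 33 of them above the median gene, and 0.25 against genes of like level. Lrrtm4, a synaptic adhesion protein, averaged 9.58 in soma and 8.83 in PGCs (0.74), while Nrxn2, a presynaptic neurexin, stood at -0.45. Testis-expressed clusters, mostly X-linked, had a median of 0.41 over 39 genes, a list whose name pattern also took in Y-linked Sly and some autosomal genes, and -0.01 for the genes left without X and Y. Magea3, of the cancer-testis antigens, averaged 2.96 in soma and 1.75 in PGCs (1.21).

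Keratin-associated genes, which encode hair proteins, had a median of -0.54, and all 13 of them lay below the median gene. Their signal was weak, with a median approximate SE of 0.52, and their median was only -0.20 against genes of like level. In the lowest decile of genes by level, 1889 of 2673 genes lay below the median gene. Keratins, the filaments of epithelia, had -0.23 over 48 genes, 32 of them below the median gene, from Krt7 at -0.46 to Krt78 at 0.17 among those at or above the median level. The Rhox cluster, X-linked homeobox genes of the reproductive tract, had -0.01 over 25 genes. Defensins, antimicrobial peptides, had 0.18 over 32 genes, and Defb14 averaged 4.89 log2 CPM in soma and 4.04 in PGCs (0.86). Histocompatibility genes had -0.08 over 28 genes, with H2-DMa, which loads peptides on class II molecules, at -0.68. The Rhox median turned sign in 7 of 10 settings, the main one counted among the 10, and the defensin and histocompatibility medians in 1 each.

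Germline genes that somatic cells silence through methylated promoters leaned towards soma. Their median was 0.31 over 30 genes, 18 above and 12 below the median gene. Only Sohlh2, a transcription factor of germ cell differentiation, passed 1, averaging 4.37 log2 CPM in soma and 3.14 in PGCs (1.23). Ddx4, the germ cell RNA helicase also called Vasa, averaged 5.55 in soma and 4.93 in PGCs (0.62), and Mael, a factor of the piRNA pathway, averaged 5.07 in soma and 4.65 in PGCs (0.42). Mov10l1, a piRNA helicase, stood at 0.59 and Asz1, another piRNA factor, at 0.51. On the other side Ddx25, an RNA helicase of spermatids, averaged 3.66 in soma and 4.17 in PGCs (-0.51), Brdt, a testis bromodomain protein, stood at -0.42 and Dazl, a germ cell RNA-binding protein, at -0.11.

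The median of this list had the other sign from that of all genes with CpG-rich promoters, although 12 of the 30 genes lay below the median gene. The promoters of the list held 19.5 CpG dinucleotides at the median, above the 16 of all protein-coding genes, while vomeronasal receptors held 1 and the cytochrome P450 list 2. Compared with genes of like promoter GC content, the median of the germline list was 0.50 over 28 genes. The promoters of 4 named genes, 300 bases each from RefSeq (GRCm38.p6, the assembly of mm10), show this contrast: a heat shock gene and a homeobox gene low in soma, and a germline gene and a receptor high in soma. Capitals mark CpG dinucleotides. Of all 14848 promoters 96.0% held at least 1.
Hspa1b: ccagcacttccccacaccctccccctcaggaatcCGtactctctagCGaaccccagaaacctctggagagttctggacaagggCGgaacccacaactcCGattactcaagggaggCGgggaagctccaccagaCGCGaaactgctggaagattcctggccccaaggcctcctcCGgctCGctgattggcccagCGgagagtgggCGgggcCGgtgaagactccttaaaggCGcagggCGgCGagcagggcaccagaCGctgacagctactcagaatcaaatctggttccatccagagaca
Six3: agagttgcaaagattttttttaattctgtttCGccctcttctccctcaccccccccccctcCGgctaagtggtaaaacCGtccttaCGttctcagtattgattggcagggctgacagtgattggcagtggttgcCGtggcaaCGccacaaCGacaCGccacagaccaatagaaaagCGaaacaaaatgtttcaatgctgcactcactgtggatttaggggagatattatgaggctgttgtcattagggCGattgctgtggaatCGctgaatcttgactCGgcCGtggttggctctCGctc
Sohlh2: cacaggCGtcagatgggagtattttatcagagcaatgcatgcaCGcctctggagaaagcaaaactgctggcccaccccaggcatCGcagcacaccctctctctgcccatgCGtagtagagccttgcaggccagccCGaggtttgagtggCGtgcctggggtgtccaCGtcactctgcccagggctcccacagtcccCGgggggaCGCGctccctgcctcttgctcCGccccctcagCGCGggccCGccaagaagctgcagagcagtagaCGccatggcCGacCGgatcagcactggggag
Vmn2r13: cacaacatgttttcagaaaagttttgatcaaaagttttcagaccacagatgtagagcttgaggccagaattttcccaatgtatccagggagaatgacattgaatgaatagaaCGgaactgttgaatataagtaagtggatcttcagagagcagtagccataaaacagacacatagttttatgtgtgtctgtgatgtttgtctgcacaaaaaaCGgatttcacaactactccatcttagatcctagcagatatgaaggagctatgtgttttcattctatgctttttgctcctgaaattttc
The Hspa1b promoter (chr17:34959189-34959488, minus strand) is 61.0% GC and holds 16 CpG. That of Six3 (chr17:85620584-85620883, plus strand) has 14 CpG. It lies inside the RefSeq span of the gene, chr17:85613608-85626191, and not at the start of that span. That of Sohlh2 (chr3:55181794-55182093, plus strand) is 64.7% GC with 17 CpG. That of Vmn2r13 (chr5:109192058-109192357, minus strand) is 37.0% GC with 2 CpG. Sohlh2 and Hspa1b thus have a similar CpG count and centred differences of 1.23 and -1.77, measured over the gene and not over the promoter alone.

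Genes of meiosis, which female PGCs enter around this stage, lay near the median gene, at 0.06 over 32 genes, and at -0.03 against genes of like length. Stra8, the gatekeeper of meiosis, averaged 3.87 log2 CPM in soma and 2.86 in PGCs (1.00, approximate SE 0.36). Sycp2, of the synaptonemal complex, averaged 5.76 in soma and 4.66 in PGCs (1.09). Its partners Sycp1, at 0.08, and Sycp3, at -0.23, did not differ beyond their approximate errors of 0.25 and 0.37. Other members went the other way. Rec8, a meiotic cohesin, averaged 1.47 in soma and 2.81 in PGCs (-1.34, approximate SE 0.44). Majin and Terb1, which tie telomeres to the nuclear envelope in meiosis, stood at -0.78 and -0.63 (approximate SE 0.25 and 0.24).

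PGC and pluripotency genes had a median of -0.18 over 23 genes, and 0 passed 1 in either direction. Pou5f1, the gene for Oct4, after which the sorting reporter is named, averaged 4.76 log2 CPM in soma and 4.48 in PGCs (0.27, approximate SE 0.29). Nanog stood at 0.20, Kit, the receptor for stem cell factor, at 0.11, Dppa3, a guard of maternal methylation also called Stella, at -0.14, and Prdm14 and Prdm1, which specify PGCs, at -0.15 and -0.18. Each of these lay within its approximate error. Among those at or above the median level the ends were Tfcp2l1, a factor of naive pluripotency, at 0.32, and Lin28a, which blocks let-7 processing, at -0.79. Below that level Zfp42 stood at 0.90, Tdgf1 at 0.84 and Dppa2 at 0.73 (approximate SE 0.37, 0.43 and 0.40). Sall4 stood at -0.73 (approximate SE 0.29). Of the whole list 9 genes lay above the median gene and 14 below it.

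Of the lists for somatic cell types, those of supporting and stromal cells had medians below the median gene, and the others lay near it. The supporting cell list, the lineage that becomes granulosa cells in the ovary, had a median of -0.43 over 20 genes, 15 of them below the median gene. Among its 10 genes at or above the median level the median was -0.24, where the median approximate SE of the list was 0.34. Foxl2, the ovarian granulosa cell regulator, averaged 0.96 log2 CPM in soma and 2.88 in PGCs (-1.92, approximate SE 0.47), and it is a short gene with few reads. Nr0b1, a nuclear receptor on the X chromosome, stood at -0.78, Wnt4, the ovary-promoting ligand, at -0.61 and Nr5a1, a regulator of steroidogenesis, at -0.28. Gata4 and Wt1, early gonadal factors, stood at -0.16 and -0.25, within their errors. Bmp2, a ligand of the ovarian supporting lineage, stood at 0.47 on the other side.

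The stromal list had a median of -0.37 over 16 genes. Col1a1, the main fibrillar collagen, averaged 3.64 log2 CPM in soma and 4.72 in PGCs (-1.08), and Pdgfra, a stromal growth factor receptor, averaged 5.44 in soma and 6.11 in PGCs (-0.67). Dcn, the matrix proteoglycan decorin, stood at 0.37. Endothelial, steroidogenic and mesonephric genes had medians of -0.11, -0.13 and -0.03 over 14, 10 and 10 genes. The mesonephric median turned sign in 2 of 11 settings, the main one counted among the 11. Pecam1, an endothelial adhesion molecule, stood at -0.33, and the endothelial receptors Tie1 and Tek at -0.66 and 0.41. Dhh, the hedgehog ligand of Sertoli cells, stood at -0.77 and Hsd3b1, a steroidogenic enzyme, at 0.76. Pax2 and Cdh16, of renal and mesonephric epithelium, stood at -0.36 and 0.66. The 11 blood genes had -0.10, which turned sign in 5 of 11 settings, with Spi1, a myeloid factor, at -0.35 and Ptprc, the leukocyte marker CD45, averaging 6.59 in soma and 5.69 in PGCs (0.89). Fewer cells of a type and less of the mark per cell cannot be told apart in such bulk libraries.

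The genes of the H3K9 methyltransferases and their readers had a median of -0.26 over 13 genes, 9 of them below the median gene, and the H3K9 demethylases had -0.13 over 11 genes. Ehmt2, which encodes G9a, averaged 4.08 log2 CPM in soma and 5.18 in PGCs (-1.10) and lies in the gene-dense class III region of the histocompatibility complex, as does Hspa1b. Its partners Ehmt1 and Wiz stood at -0.41 and -0.79, Cbx1, a reader of H3K9 methylation, at -0.52, and Atf7ip, a cofactor of Setdb1, at 0.23. Of the demethylases Kdm4a stood at -0.56 and Kdm4c at 0.38.

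The 21 genes of the DNA methylation machinery had a median of -0.07, which turned sign in 2 of 12 settings, as that of the demethylases did in 1. Apobec1, a cytidine deaminase, averaged 5.17 log2 CPM in soma and 6.07 in PGCs (-0.90, approximate SE 0.27), and Dnmt3a, a de novo methyltransferase, averaged 5.93 in soma and 6.61 in PGCs (-0.68, approximate SE 0.26). Its relative Dnmt3b stood at 0.28. Tet1, a vitamin C-responsive enzyme that starts active DNA demethylation, averaged 5.94 in soma and 5.71 in PGCs (0.23, approximate SE 0.26). Imprinted genes had a median of -0.02 over 28 genes, between Mest at -0.98 and Slc22a3 at 0.70 among those at or above the median level. Gulo, the gene of the shared Gulo-/- genotype, averaged 3.62 in soma and 3.67 in PGCs (-0.06), close to the median gene of each table, so its average does not show a loss of the gene, and whether the deleted stretch was counted was not tested. The 14 genes of vitamin C synthesis and transport had a median of -0.12, from Akr1a1, a reductase of that synthesis, at -0.54 to Txnrd1, a thioredoxin reductase, at 0.39.

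**Figure D4:**
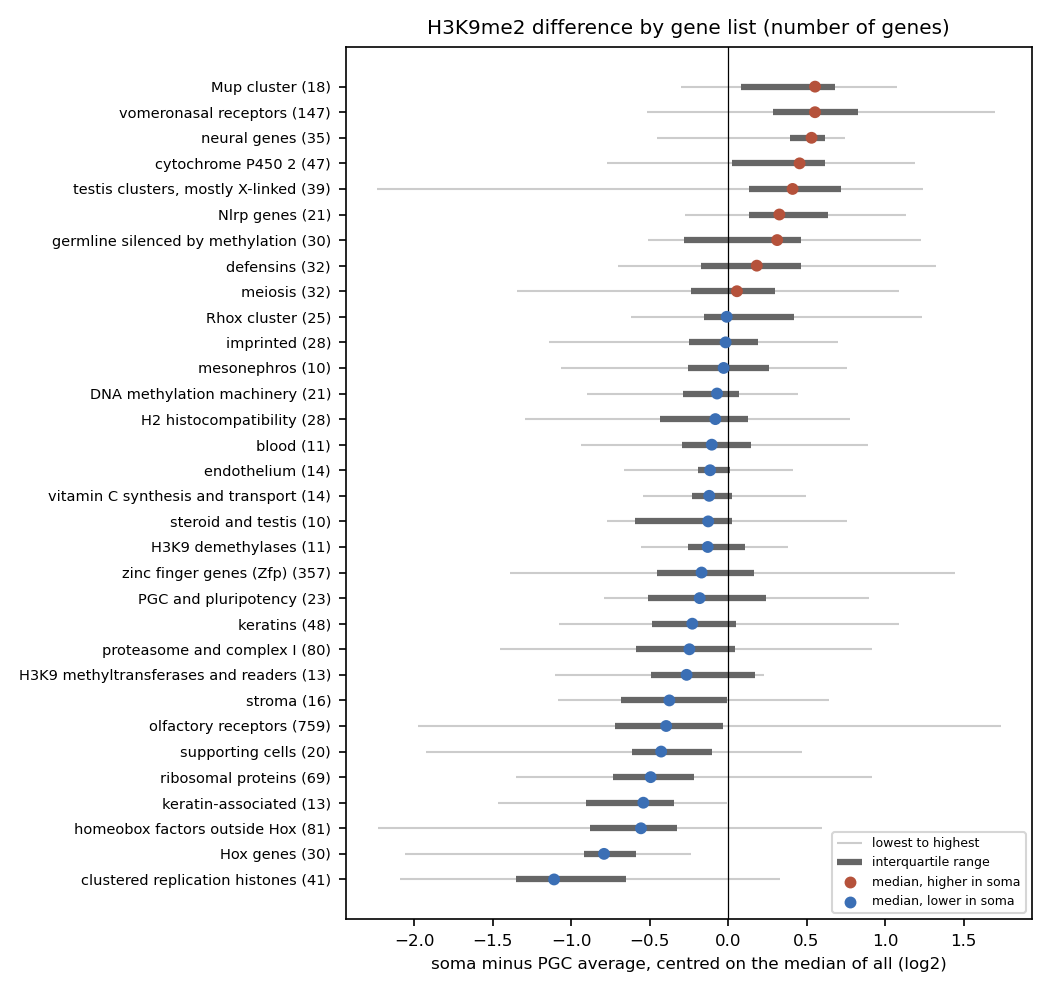
Centred difference, soma minus PGC in log2, of each gene list with at least 5 shared genes, as the median (point), the interquartile range (thick line) and the full range (thin line), with the number of genes in brackets. Clustered histones at -1.11 and Hox genes at -0.79 lie lowest, and major urinary proteins and vomeronasal receptors, both at 0.55, highest.

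Genes listed in 1 table only had low averages. The 1985 genes of the soma table alone had a median of 0.65 log2 CPM, and the 300 of the PGC table alone 1.04. The derived lower limit of depth was also higher in soma, and the part of depth in these lists was not tested. Nobox, an oocyte transcription factor, was listed for soma only, at 2.54, while Cldn3, a tight junction protein, was listed for PGCs only, at 2.15. All but 2 of the bitter taste receptor genes that were listed at all were listed for soma only, 24 against 0 for PGCs only, where soma-only genes were 6.84% and PGC-only genes 1.03% of all genes.

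Repeat families differed more than genes. The median family was 0.55 log2 higher in soma than in PGCs before centring. The tables were scaled separately, and directions below are relative to that family. The standard deviation was 0.73, and the averages had r = 0.970 over 1445 families. At least 1 higher in soma were 17 families, 1.18% of all, and at least 1 lower were 242 families, 16.7% of all. Among families at or above the median level, centred on their own median, the counts were 0 and 109.

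Transposon classes with long terminal repeats (LTRs) had medians above the median family, while B1, tRNA, structured RNA and simple repeats had medians below it. The MaLR class, non-autonomous relatives of the endogenous retrovirus ERVL, had a median of 0.40 over 103 families, 89 of them above the median, and of 0.18 when simple, low complexity and structured RNA repeats were left out of the centring. Its ends were MLT1A1 at -0.83 and MLT1J-int at 0.67 at or above the median level. All 20 MT and 29 ORR1 families were above it, the lowest of these at 0.24 and 0.15. Of the summed family signal MaLR took 7.22% in soma and 4.31% in PGCs, a share that does not depend on the centring. Rodent RLTR, RMER and MLTR families had 0.36 over 259, and ancient numbered LTRs 0.46 over 153. RLTR33 averaged 8.61 log2 CPM in soma and 7.15 in PGCs (0.91), while RLTR31D_MM averaged 10.09 in soma and 10.56 in PGCs (-1.01). Named ERV1 families had 0.15 over 20, which turned to -0.07 without simple, low complexity and structured RNA repeats.

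IAP elements, young endogenous retroviruses that resist the erasure of DNA methylation in PGCs, had a median of 0.30 over 25 families, 22 of them above the median. It was 0.07 when simple, low complexity and structured RNA repeats were left out. IAPEz-int, their main internal sequence, averaged 12.13 log2 CPM in soma and 10.70 in PGCs, 1.43 higher before centring and 0.88 after it (approximate SE 0.32). Its gap was 1.54 against families of like level. IAP1-MM_I-int went the other way, with 7.90 in soma and 7.97 in PGCs (-0.61). IAP families took 0.74% of the summed family signal in soma and 0.35% in PGCs.

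ERVL families were split, and 8 of the 10 older MLT2 families lay below the median family, with a median of -0.26. MT2_Mm, the LTR of the youngest of them, averaged 9.22 log2 CPM in soma and 10.27 in PGCs (-1.60). MERVL-int, its internal sequence, known for its burst at the 2-cell stage, averaged 11.58 in soma and 11.64 in PGCs (-0.61, but 0.05 against families of like level). The related ERV3-16A3_I-int averaged 7.55 in soma and 6.25 in PGCs (0.76). The LTR and the internal part of 1 element thus differed by about 1 log2 unit in their centred values.

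LINE-1 elements showed how far a direction can rest on scaling. The 39 rodent LINE-1 families had a median of -0.28 after centring, with 36 below the median family, yet 0.32 against families of like level and 0.12 with quantile-matched averages. They took 33.7% of the summed family signal in soma and 29.3% in PGCs. L1Md_A, a young and active subfamily, averaged 14.26 log2 CPM in soma and 13.83 in PGCs (-0.12 after centring, 0.43 before). L1Md_T averaged 14.86 in soma and 14.62 in PGCs (-0.31 after centring), and L1Md_Gf 9.96 in soma and 9.76 in PGCs (-0.34). No direction is therefore given for this class. The 91 older LINE-1 families had a median of -0.33, with 21 lower by at least 1, 23.1% against 16.7% of all families. Among them L1PB4 averaged 6.96 in soma and 7.90 in PGCs (-1.49).

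Among short interspersed elements, B1 families were low and B4 families were not. All 15 B1 families, which descend from 7SL RNA, lay below the median family, with a median of -1.12 that was -0.51 against families of like level. PB1 averaged 12.71 log2 CPM in soma and 13.81 in PGCs (-1.65). B1 families took 7.27% of the summed family signal in soma and 11.4% in PGCs. The 8 B4 and ID families had 0.41, 6 of them above the median family, from ID_B1 at -0.54 to ID2 at 0.70, and took 3.91% in soma and 2.71% in PGCs. B1 elements are dense near genes, and the gene-dense decile of genes was also lower in soma. Whether these values move together for 1 reason was not tested.

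Structured RNA repeats were low, as were the RNA genes above, each centred on its own median. Their median was -1.20 over 19 families, 12 of them lower by at least 1, 63.2% against 16.7% of all families. The tRNA repeats had -1.31 over 49 families, 33 of them lower by at least 1, or 67.3%. The 7SLRNA family averaged 11.84 log2 CPM in soma and 13.12 in PGCs, -1.28 before centring and -1.83 after it. Rn7s1, counted among genes, had -1.39 both before and after centring. Whether the same reads were counted in both was not tested. BC1_Mm, a neuronal RNA, was closest to 0 at this level, at -0.45.

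Simple repeats made up most of the families low in soma, 143 of 242. Of the simple repeats 52.6% were lower by at least 1, against 16.7% of all families. The median of simple repeats was -1.04 over 272 families, with 12.4% of the summed family signal in soma and 19.6% in PGCs. (CATTC)n averaged 12.37 log2 CPM in soma and 13.77 in PGCs (-1.95), and its reverse complement was as low, with (GAATG)n averaging 10.10 in soma and 11.46 in PGCs (-1.91). The triplet (CGG)n averaged 8.33 in soma and 9.69 in PGCs (-1.91). The 42 families with CG in the repeated motif had a median of -1.56. Of them 36 were lower by at least 1, 85.7% against 16.7% of all families. The 230 without CG had -0.95, with 107 lower by at least 1, or 46.5%. Motif GC did not order them evenly, since motifs of only A and T had -1.37 over 16 families and motifs above 60% GC had -1.31 over 74.

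Satellites were mixed. GSAT_MM, the major satellite of pericentromeric heterochromatin, averaged 14.70 log2 CPM in soma and 13.77 in PGCs, 0.93 higher before centring and 0.38 after it (approximate SE 0.28). SYNREP_MM averaged 11.19 in soma and 10.10 in PGCs (0.54), while MMSAT4 averaged 9.66 in soma and 10.12 in PGCs (-1.01). Families of DNA transposons had a median of 0.18 over 163, from MMAR1 at -1.46 to URR1A at 0.79 among those at or above the median level, and -0.05 at its lowest under another processing. Eulor and UCON elements, old conserved sequences, had -0.77, and all 53 lay below the median family.

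**Figure D5:**
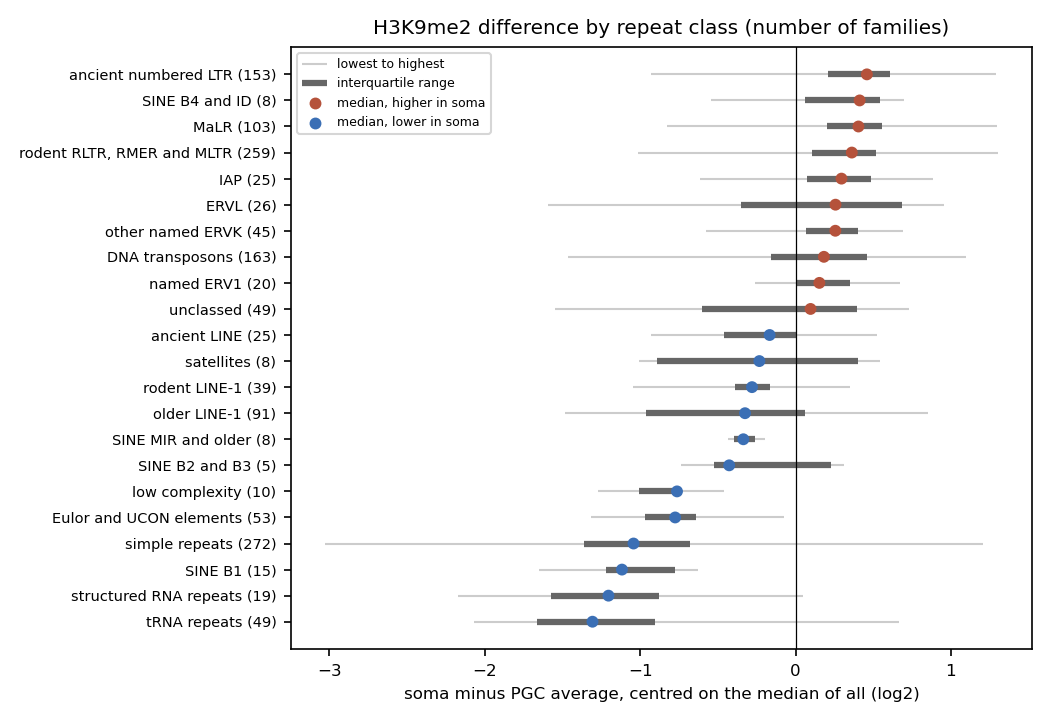
Centred difference, soma minus PGC in log2, of the families of each repeat class, as the median (point), the interquartile range (thick line) and the full range (thin line), with the number of families in brackets. The medians of the LTR classes lie above 0 here, and those of tRNA, structured RNA, B1 and simple repeats are lowest, at -1.31 to -1.04. At their lowest under another processing, the medians of ERVL, other named ERVK and IAP families are 0.02, 0.03 and 0.07. That of named ERV1 turns to -0.07. The direction of rodent LINE-1 at -0.28 turns under 2 other scalings.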

How the data were processed

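Sorted cells, 1000 per library, went through CUT&RUN and 18 PCR cycles, per the labels' protocols. The submitters' processing notes name Trim Galore 0.4.0, Bowtie2 2.2.5, Picard and the mm10 build, and not the counting, filtering or scaling. The 4 tables hold the output of voom and limma, per the file headers. The authors' deposited averages and fold changes are on the log2 scale. The deposited t statistic is a score, the deposited p-values are raw or adjusted, and the deposited B is a natural log of odds. Only the average was compared. The diet fold change and t gave the approximate standard error, and the fold change also gave equal diet weights as an alternative.

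Averages were subtracted (soma minus PGC) in python 3.11.15 with pandas 2.3.3 and numpy 2.4.6, centred on the median and counted beyond 1 log2 unit, with no test. The calculation was tested on simulated data. Depth came from ratios of the lowest averages, which take odd whole-number steps when reads are whole (relative tolerance 3e-11), and is a lower limit. PCR reads are not independent molecules. Of the shared genes, 24815 matched RefSeq by symbol and 739 by synonym, and gene density is the number of RefSeq genes within 1 Mb. Repeat classes follow family names. A value against like level is the gap to a running median over 501 genes or 101 families.

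Named genes and families come from the 12 genes and 10 families at each end at or above the median level, without clone names, the ends of each list and class at that level, and fixed marker genes. Mitochondrial, Y-linked and short RNA genes, Hoxd13, Hoxc11, Hoxa13, Hoxc4, Hist2h3c2, Hist1h2bg, Magea3, Mov10l1, Asz1, Brdt, Nr0b1, Bmp2, Rec8, Terb1, Ehmt1, Wiz, Cbx1, Dnmt3a and genes of 1 table only were chosen after their values were seen. So were Hoxb8, Hoxa2, Hoxb1, Hoxc10, Hoxc12, Zfp42, Tdgf1, Dppa2 and Sall4. The members, lists and rules were chosen with earlier results of these data known.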

Additional observations from a re-analysis of the deposited data

How the results depend on the processing

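No values per library were used, so no library could be left out, and no paired analysis was possible because the tables hold averages only. The count of genes higher and lower in soma is 756 and 985 at a distance of 1 from the median. It was 4586 and 4793 at 0.5, and 1 and 21 at 2. At or above the median level it was 138 and 301, without predicted models, clones and microRNA genes 388 and 529, and within deciles of promoter GC 269 and 490, each over fewer genes. Within deciles of gene length 576 were lower, and the mitochondrial median was -0.87.

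For families the counts are 17 higher and 242 lower. They were 258 and 460 at a distance of 0.5 and 0 and 8 at 2. They were 38 and 157 when centred on the mean, 0 and 109 at or above the median level, and 4 and 100 without simple, low complexity and structured RNA repeats. Against a running median along the level 50 were higher, and with quantile-matched averages 34. In these last settings, in order, the B1 median was -0.51 and -0.59, rodent LINE-1 turned to 0.32 and 0.12, and the 5 B2 and B3 families turned to 0.23 and 0.046. The cause was not tested. Weighting soma diets equally, with the fold change read either way, gave 718 to 827 genes higher and 903 to 1106 lower. The averages of weak features rest on few reads, and the median error was 0.51 in the lowest decile of genes by level and 0.25 in the highest.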

Other observations

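Bins of 1 Mb with high medians included arrays of copied genes. On chromosome 14, 19 genes of chr14:3000001-4000000 (mm10) had a median centred difference of 1.15, and 16 of them were higher in soma by at least 1. Of all genes, 2.83% were higher by as much. On chromosome X, 7 genes of chrX:28000001-29000000 had 1.46, and 6 genes of chrX:26000001-27000000, which include the spermatid gene Slx, had 1.05. The Serpina3 array, a set of duplicated protease inhibitors at chr12:104000001-105000000, had 0.91 over 18 genes, 7 of them higher by at least 1. At chr8:43000001-44000000, 6 genes with the pluripotency marker Zfp42 and testis-expressed Adam26a had 0.87. Near copies in an array may share reads, so each array is better read as 1 value. Other high bins also held single-copy genes by name. The bin chr2:137000001-138000000 had 0.87 over 5 genes, from -0.45 to 1.42. It holds the Notch ligand Jag1, and its other genes are all predicted models, so its median is not a value of Jag1. The bin chr16:26000001-27000000, with the tight junction gene Cldn1 and Il1rap, had 0.80 over 8.

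The lowest bin after the 5S array was chrX:13000001-14000000, with Usp9x and Ddx3x, at -0.67 over 7 genes. The bin of Ahnak and Incenp, chr19:9000001-10000000, had -0.58 over 8. Bins with regulators of development were also low. The Hoxd bin, chr2:74000001-75000000, had -0.56 over 17 genes, the Hoxa bin, chr6:52000001-53000000, had -0.53 over 19, and the bin of Hoxb genes, chr11:96000001-97000000, had -0.57 over 28. The histone cluster of chr13:23000001-24000000 had -0.59 over 40 genes. Bins made mostly of olfactory receptors were also among the lowest, such as chr14:50000001-51000000 at -0.56 over 33 genes.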
